A study of Mus musculus with 28 samples.

Results

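The genes described here are the 20 cytosolic aminoacyl-tRNA synthetases and 17 genes of the ATF4 stress response, 37 of the 25124 genes in the deposited table. They were chosen by symbol, and each of the 37 symbols was found once. By role they are 20 synthetases, 7 transcription factors and stress regulators, and 10 genes of amino acid synthesis, one-carbon metabolism and cystine uptake. RNA was sequenced from live CD45+ CD90.2+ TCRb+ CD4+ T cells that had been sorted from the lamina propria of the small intestine. Every mouse carried T-bet-ZsGreen, a fluorescent reporter of the transcription factor T-bet, and the stated gate does not include it. Some mice had a gut flora free of specified pathogens (SPF) and the others were germ-free (GF). They received aCD3, an antibody against the CD3 chains of the T cell receptor, or an isotype control antibody. SPF isotype and SPF aCD3 each held 6 libraries, 3 labelled female and 3 labelled male. GF isotype held 10, with 5 labelled for each sex, and GF aCD3 held 6, of which 1 was labelled female and 5 male. Age, dose and the time from injection to sampling were not given in the sources used here. Libraries are named below by the sex letter and number of their title, as in F1 or M3.

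Aminoacyl-tRNA synthetases join each amino acid to its tRNA, and so supply the ribosome. When charged tRNA or amino acids run short, or when the endoplasmic reticulum is under stress, kinases phosphorylate the initiation factor eIF2, general translation slows, and the mRNA of the transcription factor ATF4 is translated more. ATF4 then raises transcription of many synthetases, amino acid enzymes and transporters, so ATF4 activity is set largely at the protein level and its own mRNA need not follow. In T cells, engagement of the receptor is known to raise protein synthesis and serine and one-carbon metabolism.

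The ATF4 binding site is a composite element in which part of a C/EBP site meets part of an ATF site. Promoter sequences, the 250 bases before the start of a gene, were taken from RefSeq (build GRCm38.p6) for the 29 of 37 genes that matched by symbol. The letters TGATGNAA, searched on both strands, occurred in at least 1 promoter of 7 of these 29 genes (24.1%). The same held for 3.91% of the 27025 genes of the promoter set, expressed here or not. Part of the list was chosen as ATF4 response genes, so these shares are not a test of it. The matches lay in 3 synthetases (Aars, Gars, Tars), 1 regulator (Chac1) and 3 genes of the metabolic group (Asns, Pycr1, Slc7a11, the last with 2 matches). The E-box CACGTG, the letters bound by MYC and related factors, occurred in 4 of 29 genes (Aars, Farsb, Iars, Aldh18a1, 13.8%) and in 6.86% of all. A match describes the letters in this window and not a bound site. The 4 composite matches in genes that could be tested, and the E-box of Aars, are shown on the strand of the gene with the match in capitals.
Aars, chr8:111033714-111033753, plus strand: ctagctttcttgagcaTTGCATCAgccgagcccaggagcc
Gars, chr6:55037955-55037994, plus strand: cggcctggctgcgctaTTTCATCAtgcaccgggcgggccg
Tars, chr15:11399659-11399689, minus strand: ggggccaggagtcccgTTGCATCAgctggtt
Asns, chr6:7693210-7693248, minus strand: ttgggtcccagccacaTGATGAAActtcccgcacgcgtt
Aars E-box, chr8:111033680-111033717, plus strand: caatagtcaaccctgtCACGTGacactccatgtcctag
The composite match ended 8 bases before the start in Tars, 16 in Asns, 23 in Gars and 105 in Aars. In Aars, Gars and Tars it read on the strand opposite to the gene, and in Asns on the same strand. The 2 matches of Slc7a11 lay in a gene that was hardly detected in these cells, as did those of Chac1 and Pycr1.

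Reads assigned to genes numbered between 6765526 and 17860806 per library. Histone transcripts took 4.31% to 7.30% of the total in SPF isotype and 24.1% to 27.1% in SPF aCD3, which lowers the share of every other transcript. Levels were therefore scaled by median of ratios and are called scaled TPM below, and where a named gene's call in SPF mice is lost on TPM as deposited, that is said beside it or with the other scales. Without scaling the median gene moved by -0.34 on the log2 scale between SPF aCD3 and SPF isotype, and after it by -0.0033. The T cell identity was checked with 7 markers, all present in every group. Their summed level was between 1596 and 1812 scaled TPM in SPF isotype, 2034 and 2300 in SPF aCD3, 1519 and 1748 in GF isotype, and 1402 and 1958 in GF aCD3, so it moved with aCD3 in SPF mice. Among the 6 libraries labelled GF aCD3, those labelled F1, M3 and M4 stood apart from M1, M2 and M5. Histone transcripts took 5.66%, 7.79% and 6.71% of the total in F1, M3 and M4, as against 23.8%, 23.4% and 26.3% in M1, M2 and M5. Lag3, a receptor gene that was between 633 and 1010 scaled TPM in SPF aCD3 and at most 21.6 in SPF isotype, was 8.45, 13.8 and 10.6 in F1, M3 and M4 and 559, 508 and 638 in M1, M2 and M5. The sources used here do not settle whether F1, M3 and M4 received aCD3 as labelled or were sampled at the same time, so every aCD3 effect in GF mice and every difference from SPF mice below holds for the libraries as labelled only. Groups were kept as labelled, no mean or test was made of these libraries apart, and GF aCD3 levels are given library by library for the genes described one by one in GF mice.

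The question of the first comparison was what aCD3 did in mice with a flora. In SPF mice, most synthetases and every tested enzyme of the metabolic group rose after aCD3, while Atf4 itself and the stress genes Ddit3 and Trib3 fell. Of the 33 genes that could be tested, 24 were higher and 4 lower at a limma adjusted p under 0.05, and 5 did not pass. Over all 12140 tested genes 60.0% passed, 30.8% higher and 29.2% lower, so the share of higher genes among the 33 (72.7%) was above that of the background and the share of lower genes (12.1%) below it. The median log2 fold change was 0.55 over the 33 genes and -0.0033 over all genes. In 18 genes every SPF aCD3 library was above every SPF isotype library (54.5%, background 20.6%), and in 4 every one was below (12.1%, background 19.1%). The remaining 4 genes, Chac1, Pycr1, Cth and Slc7a11, stayed at or below 1.01 scaled TPM in every library and were not tested. Their highest counts in a library were 6, 8, 21 and 28 reads, and they were at 0 in 22, 11, 10 and 16 of 28 libraries.

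**Figure D1:**
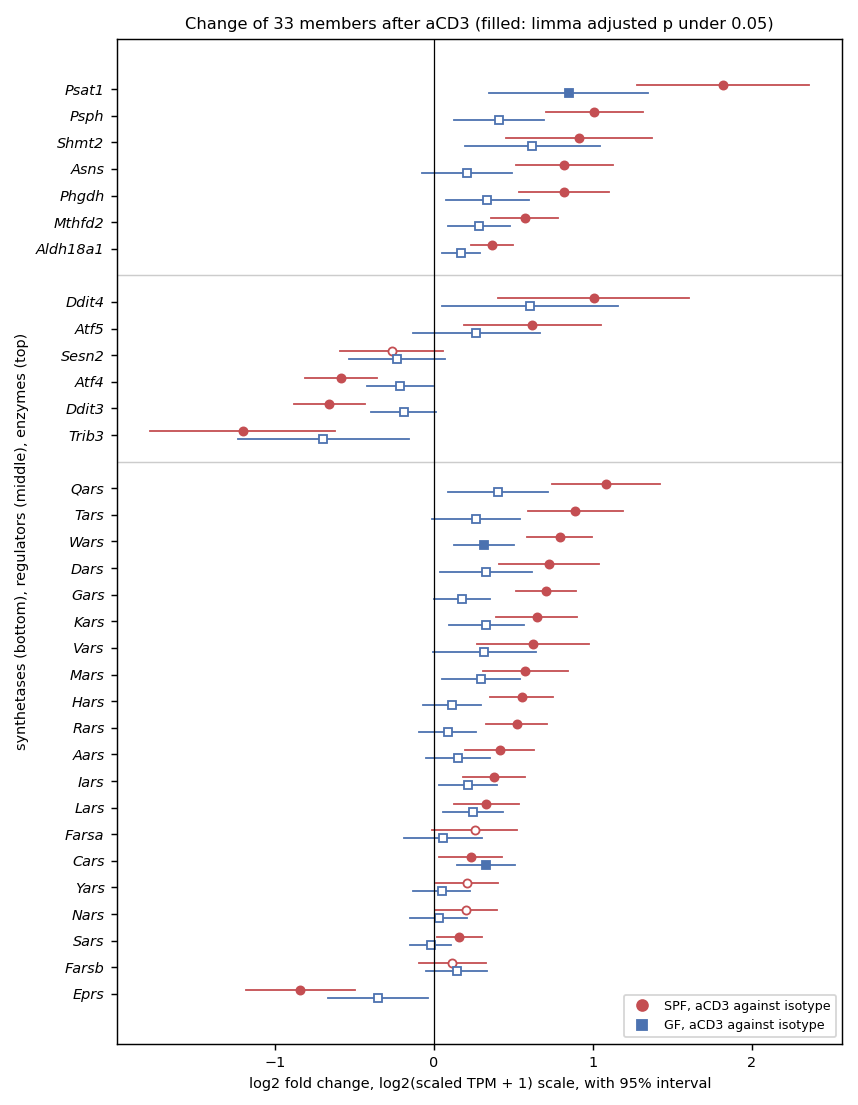
Log2 fold change of the 33 tested genes after aCD3 (horizontal axis, log2(scaled TPM + 1) scale, with 95% interval), in SPF mice (circles) and GF mice (squares). Filled symbols have a limma adjusted p under 0.05. In SPF mice 24 genes lie to the right and 4 to the left of 0 past the threshold (Cars, Lars, Sars and Aldh18a1 turn negative on TPM as deposited), and in GF mice 3 pass.

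Of the 20 cytosolic synthetases 15 rose and 1, Eprs, fell (75% and 5%, where all tested genes gave 30.8% and 29.2%). Their median log2 fold change was 0.47, although Cars, Lars and Sars among the 15 had negative values on TPM as deposited. The other 4, Farsa, Farsb, Nars and Yars, had values of 0.25, 0.12, 0.20 and 0.21 and did not pass. Farsa and Farsb encode the subunits of the phenylalanine enzyme, and neither passed. The rises were modest: among the 20, only Qars passed and reached 1 on the log2 scale. The 8 synthetases that sit together in the multi-synthetase complex (Dars, Eprs, Iars, Kars, Lars, Mars, Qars, Rars), a grouping made after the values were seen, comprised 7 that rose and 1 that fell, with a median of 0.55. Of the 12 others 8 rose and 0 fell, with a median of 0.33. Both counts stand beside the same 30.8% higher and 29.2% lower among all tested genes.

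Qars (NM_133794, mm10 chr9:108508005-108515941, plus strand) charges tRNA with glutamine. It was between 27.2 and 34.8 scaled TPM in SPF isotype (median 32.3) and between 59.7 and 78.4 in SPF aCD3 (median 67.1). The groups did not overlap, and the lowest aCD3 library lay well above the highest isotype library. On the log2 scale Qars rose by 1.08 (SE 0.17, 95% interval 0.74 to 1.42, limma adjusted p = 8.65e-06).

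Tars (NM_033074, chr15:11383663-11399658, minus strand), the threonine enzyme, has the composite match shown above. Its level ran from 11.1 to 15.1 scaled TPM in SPF isotype (median 13.7) and from 23.6 to 27.9 in SPF aCD3 (median 25.6). Again every aCD3 library was above every isotype library, with little spread within either group. Tars rose by 0.89 on the log2 scale (SE 0.15, limma adjusted p = 1.74e-05).

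Wars (NM_011710, chr12:108860030-108893211, minus strand), which charges tryptophan, is also known as a gene induced by interferon. SPF isotype libraries lay between 6.87 and 8.12 scaled TPM (median 7.65) and SPF aCD3 libraries between 12.7 and 14.5 (median 14.0). The spread within each group was small, and the groups did not overlap. Wars rose by 0.79 on the log2 scale (SE 0.10, limma adjusted p = 1.34e-06), which was the lowest adjusted p of the 33 genes.

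Dars (NM_145507, chr1:128412118-128417416, minus strand), the aspartate enzyme, was between 10.8 and 20.3 scaled TPM in SPF isotype (median 13.9) and between 19.5 and 31.9 in SPF aCD3 (median 24.2). The groups overlapped, since isotype F2 was above aCD3 M2 and M3. The rise of Dars was 0.72 on the log2 scale (SE 0.15, limma adjusted p = 0.000261). The row of Dars in the deposited table covers 9.9% of the span that GENCODE M21 gives the gene, so its value stands for a small stretch of it.

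Gars (NM_180678, chr6:55038001-55079504, plus strand), the glycine enzyme, was between 11.7 and 13.3 scaled TPM in SPF isotype (median 12.4) and between 19.5 and 22.6 in SPF aCD3 (median 21.2). No library of one group reached the other. Gars rose by 0.71 on the log2 scale (SE 0.09, limma adjusted p = 2.05e-06). Gars, like Tars and Aars, has a composite match within its promoter window.

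Eprs (NM_029735, chr1:185363044-185428360, plus strand) encodes the fused enzyme that charges both glutamate and proline. It went the other way: SPF isotype libraries ranged from 24.2 to 45.6 scaled TPM (median 31.8), and SPF aCD3 libraries from 15.6 to 19.1 (median 17.0). Every aCD3 library was below every isotype library, and the isotype libraries were the more spread out. The log2 fold change was -0.84 (SE 0.17, limma adjusted p = 0.000134), and the call held under every scaling tried.

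The other 10 synthetases that passed (Aars, Cars, Hars, Iars, Kars, Lars, Mars, Rars, Sars, Vars) had log2 fold changes between 0.16 in Sars and 0.65 in Kars. Of these, Aars, Hars, Kars, Lars, Mars, Rars and Vars did not overlap between the groups. Aars, which holds both a composite match and an E-box, was between 17.2 and 22.1 scaled TPM in SPF isotype and between 26.5 and 28.3 in SPF aCD3, and rose by 0.41 on the log2 scale (limma adjusted p = 0.00181), but was at 0.0063 on TPM as deposited. Iars, with an E-box, was between 6.54 and 8.36 and between 8.21 and 11.5 scaled TPM, so its groups touched, and its log2 value of 0.38 became 0.00063 on TPM as deposited. Cars and Sars were at the edge of the threshold (limma adjusted p = 0.0403 and 0.0494). Cars no longer passed without any 1 of SPF isotype F1, M1, M2 or M3, or of SPF aCD3 F1, F3, M1 or M3, while its log2 fold change stayed between 0.20 and 0.27. Sars passed in 9 of 28 fits that left out a library, those without SPF isotype F3 or M2, SPF aCD3 F2 or M3, GF isotype F2 or GF aCD3 M1, M2, M3 or M4. The 26 other calls held whichever library was left out.

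**Figure D2:**
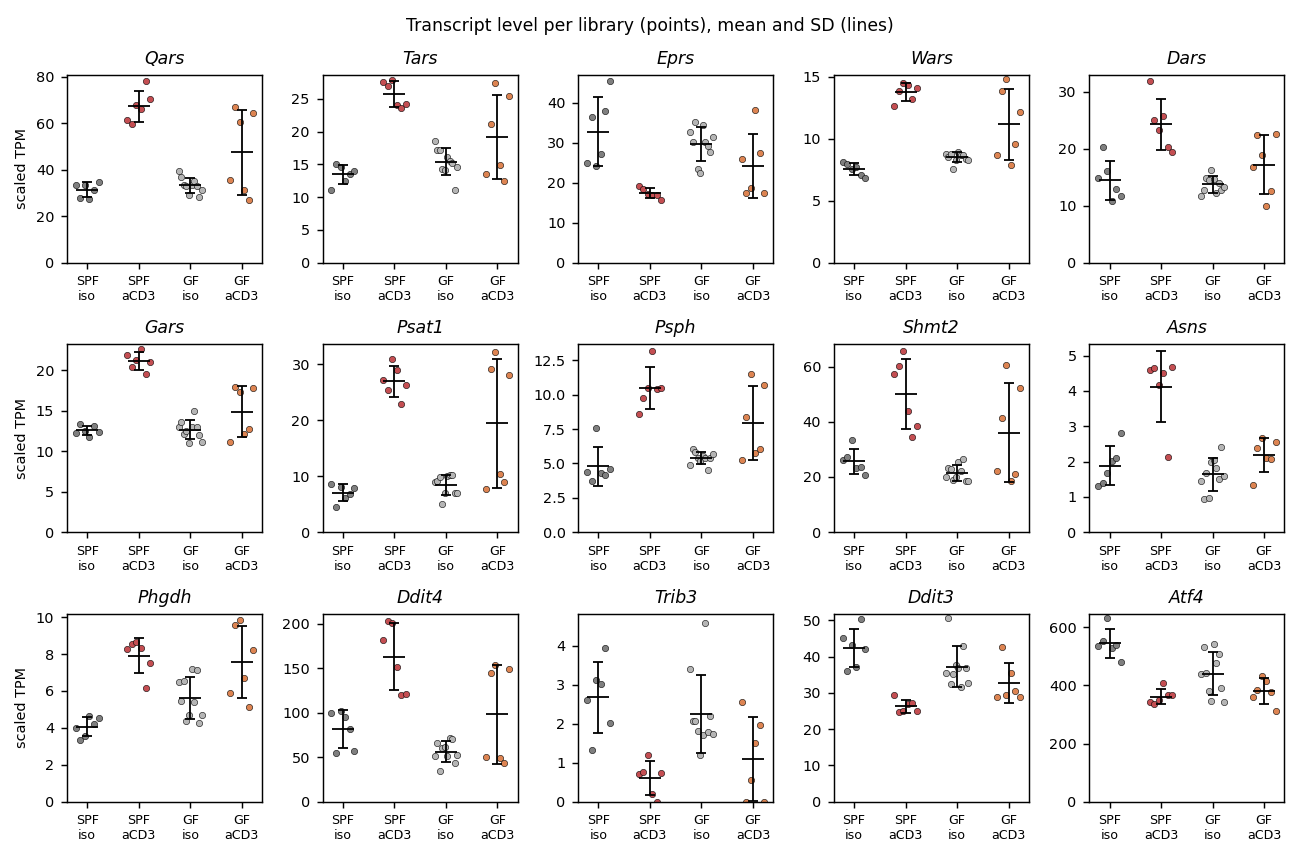
Level in each library (points, scaled TPM, linear axes from 0) of the 15 genes described one by one, with the mean and SD of each group as lines. In SPF mice the points of aCD3 and isotype separate in all panels but those of Dars and Asns, and the GF aCD3 points often fall into a higher and a lower set.

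The regulators did not move together. Of the 6 that could be tested 2 rose (Ddit4, Atf5), 3 fell (Atf4, Ddit3, Trib3) and Sesn2 did not pass, with a log2 value of -0.27. The share that rose (33.3%) was close to the 30.8% of all tested genes, and the share that fell was 50% against 29.2%. The median over the 6 was -0.43. Chac1, a glutathione-degrading enzyme that is a common marker of ATF4 activity, was listed at 0 in 22 of 28 libraries.

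Atf4 (NM_001287180, chr15:80255184-80257545, plus strand) was abundant, between 482 and 631 scaled TPM in SPF isotype (median 537) and between 335 and 409 in SPF aCD3 (median 357). All aCD3 libraries were below all isotype libraries. On the log2 scale Atf4 fell by 0.59 (SE 0.11, limma adjusted p = 7.03e-05). This is a level of mRNA; ATF4 protein was not measured.

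Ddit3 (NM_007837, chr10:127290793-127296288, plus strand) encodes CHOP, a transcription factor downstream of ATF4 that is linked to cell death under lasting stress. It was between 36.1 and 50.5 scaled TPM in SPF isotype (median 42.7) and between 24.6 and 29.4 in SPF aCD3 (median 26), with no overlap. The log2 fold change was -0.66 (SE 0.11, limma adjusted p = 1.62e-05). Ddit3 and Mars lie on opposite strands and share 68 bases, since the row of Ddit3 runs past the end that GENCODE M21 gives the gene and is 187.9% of its span, and whether the counting used strand was not stated. Mars moved the other way, from a median of 11.9 to 17.9 scaled TPM (log2 fold change 0.58, and 0.18 without a call on TPM as deposited).

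Trib3 (NM_175093, chr2:152337425-152344060, minus strand) encodes a pseudokinase that restrains ATF4 and CHOP. Its level was low: between 1.34 and 3.93 scaled TPM in SPF isotype (median 2.82), and from 0 to 1.2 in SPF aCD3 (median 0.724). That amounted to 14 to 47 reads per isotype library and 0 to 14 per aCD3 library. The groups did not overlap, and the log2 fold change was -1.21 (SE 0.28, limma adjusted p = 0.000753), the lowest of the 33 genes.

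Ddit4 (NM_029083, chr10:59949675-59951770, minus strand) encodes REDD1, an inhibitor of mTORC1 that also answers to glucocorticoids and hypoxia. It was between 54.5 and 101 scaled TPM in SPF isotype (median 88.3) and between 120 and 203 in SPF aCD3 (median 167). The groups stayed apart, with M2 the lowest aCD3 library. Ddit4 rose by 1.00 on the log2 scale (SE 0.29, limma adjusted p = 0.00458).

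Atf5, a relative of ATF4 whose translation is controlled in the same manner, went from a median of 3.62 to 5.64 scaled TPM (log2 fold change 0.62, limma adjusted p = 0.0134), with no overlap, but did not pass on TPM as deposited (0.27). The row of Atf5 shares 571 bases with Nup62 and 289 with Il4i1b on the opposite strand. Sesn2, which senses leucine upstream of mTORC1, was between 3.40 and 6.13 scaled TPM in SPF isotype and between 2.55 and 4.68 in SPF aCD3.

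The metabolic genes had the highest median of the 3 roles. All 7 that could be tested passed and were higher (100%, where all tested genes gave 30.8%). Their median log2 fold change was 0.82, although Aldh18a1 was at -0.02 on TPM as deposited. They include the 3 steps of serine synthesis from glycolysis (Phgdh, Psat1, Psph) and 2 mitochondrial folate enzymes downstream of serine (Shmt2, Mthfd2). Asns, the asparagine synthetase, and Aldh18a1, the first enzyme of proline synthesis, complete the set.

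Psat1 (NM_177420, chr19:15905123-15925059, minus strand), the transaminase of serine synthesis, was between 4.51 and 8.60 scaled TPM in SPF isotype (median 7.37) and between 22.9 and 31 in SPF aCD3 (median 26.8). The lowest aCD3 library was far above the highest isotype library. Its rise of 1.82 on the log2 scale (SE 0.26, 95% interval 1.28 to 2.36, limma adjusted p = 4.76e-06) was the highest of the 33 genes. Its row covers 46.7% of the GENCODE M21 span.

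Psph (NM_133900, chr5:129765558-129787253, minus strand), the phosphatase that completes serine, ran from 3.74 to 7.59 scaled TPM in SPF isotype (median 4.32) and from 8.62 to 13.2 in SPF aCD3 (median 10.4). The highest isotype library, F3, stood well above the other 5 but below every aCD3 library. Psph rose by 1.01 on the log2 scale (SE 0.15, limma adjusted p = 5.95e-06). Phgdh (NM_016966, chr3:98313171-98339969, minus strand), the first and committed step, ran from 3.36 to 4.64 (median 4.10) and from 6.16 to 8.65 (median 8.29). Here too the groups did not meet, and the log2 fold change was 0.82 (SE 0.14, limma adjusted p = 2.22e-05).

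Shmt2 (NM_001252316, chr10:127517123-127522444, minus strand), which splits serine into glycine and a folate-bound carbon in mitochondria, was between 20.5 and 33.3 scaled TPM in SPF isotype (median 24.9) and between 34.4 and 65.8 in SPF aCD3 (median 50.5). The groups did not overlap, but the aCD3 libraries were spread out, with the 3 female ones above the 3 male ones. On the log2 scale Shmt2 rose by 0.91 (SE 0.22, limma adjusted p = 0.00113). Mthfd2, the next enzyme of that pathway, went from a median of 25.7 to 38.9 scaled TPM (log2 fold change 0.57, limma adjusted p = 4.37e-05) without overlap, but did not pass on TPM as deposited (0.16). The row of Mthfd2 is 58.9% of the GENCODE M21 span.

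Asns (NM_012055, chr6:7675165-7693209, minus strand), whose promoter match is shown above and which is the classical ATF4 target, was low, between 1.30 and 2.81 scaled TPM in SPF isotype (median 1.84). In SPF aCD3 it was between 2.12 and 4.67 (median 4.56). Of the aCD3 libraries 5 were above every isotype library, and M2, at 2.12, lay among the isotype values. Asns rose by 0.82 on the log2 scale (SE 0.15, limma adjusted p = 5.12e-05). Aldh18a1 rose by 0.37 (limma adjusted p = 3.63e-05), from a median of 9.47 to 13.0 scaled TPM, with M2 again the lowest aCD3 library.

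The scale bears on the moderate changes. On TPM as deposited, where 14.2% of all tested genes were higher and 50.7% lower, 12 of these genes were higher (Asns, Dars, Ddit4, Gars, Kars, Phgdh, Psat1, Psph, Qars, Shmt2, Tars, Wars) and 7 lower. The 7 were Eprs, Atf4, Ddit3 and Trib3 with Sars, Nars and Sesn2. Of the 12 other genes that rose on the scaled values, Sars, Lars, Cars and Aldh18a1 had negative values there. The 8 others did not pass: Aars, Iars, Rars, Hars, Mthfd2, Mars, Vars and Atf5, with log2 values between 0.00063 in Iars and 0.27 in Atf5. Quantile normalization gave 23 higher and 4 lower (26.9% and 31.9% of all genes), and TPM brought to 1 total without histone genes and Rn45s gave 21 and 4 (22.6% and 35.1% of all genes). The 12 named genes were higher, and Eprs, Atf4, Ddit3 and Trib3 lower, on each of the 4 scales.

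**Figure D3:**
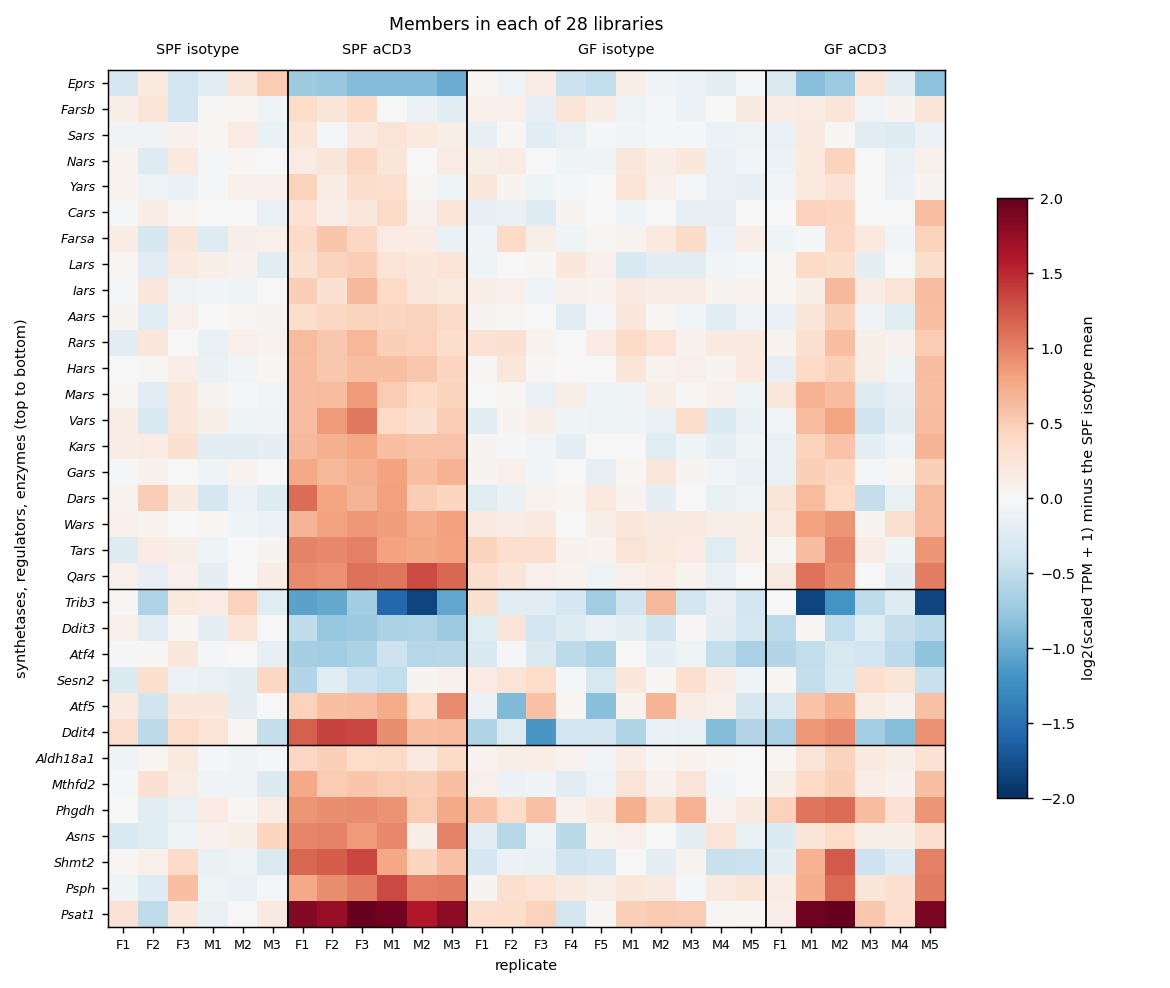
Difference of log2(scaled TPM + 1) from the mean of SPF isotype (colour, from -2 in blue to 2 in red) for 33 genes (rows, by role) in 28 libraries (columns, by group). The SPF aCD3 columns are red for the 24 genes that rose (except F2 for Sars, just below 0) and blue for Eprs, Trib3, Ddit3 and Atf4, and within GF aCD3 the columns M1, M2 and M5 resemble them while F1, M3 and M4 resemble isotype.

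Genes near the pathway, from lists chosen with earlier results of these data known, changed in both directions in SPF mice. Their counts stand beside 30.8% higher and 29.2% lower among all tested genes. Of 17 mitochondrial synthetases 3 rose and 5 fell (17.6% and 29.4%, median -0.08), shares below or close to that background. Sars2 rose by 1.05 on the log2 scale, while Nars2, Ears2 and Mars2 had values of -0.93, -0.88 and -0.73, all with a limma adjusted p under 0.05. Among 11 scaffold and tRNA partner genes 5 rose and 3 fell (45.5% and 27.3%), among them the complex scaffolds Aimp2 (0.55) and Aimp1 (0.47) and the D-aminoacyl-tRNA deacylases Dtd2 (0.57) and Dtd1 (-0.47). Aimp1, Aimp2 and Dtd2 did not pass on TPM as deposited.

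Of 17 genes for the eIF2 kinases and their machinery 7 rose and 4 fell (41.2% and 23.5%, median -0.03). Eif2ak2, the kinase PKR that is induced by interferon, rose by 1.80 (SE 0.22, limma adjusted p = 1.2e-06), and Eif2s1, the phosphorylated subunit of eIF2 itself, by 0.84. Eif2ak4, which encodes the amino acid sensor GCN2, fell by 0.48 and Impact, an inhibitor of GCN2, fell by 1.49. Ppp1r15a, which encodes GADD34, the ATF4-induced phosphatase subunit that reverses eIF2 phosphorylation, had a log2 change of -1.14 (SE 0.23, limma adjusted p = 0.000186).

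Other known ATF4 targets went both ways: of 17 tested out of 26, 3 rose and 4 fell (17.6% and 23.5%, median -0.12), both shares below the background. Atf3, a stress transcription factor, had a log2 change of -1.84 (SE 0.32, limma adjusted p = 3.17e-05) and Got1, the cytosolic aspartate transaminase, one of -1.43. Bcat1, the cytosolic branched-chain transaminase, rose by 1.17, and Pck2, the mitochondrial PEP carboxykinase, by 0.84, though Pck2 did not pass on TPM as deposited. Of 10 tested one-carbon enzymes 5 rose and 2 fell (50% and 20%, median 0.41). Tyms, the thymidylate synthase, rose by 2.18 on the log2 scale, and Gcsh, of the glycine cleavage system, rose by 0.84. Myc had a log2 change of 0.50 (SE 0.15, limma adjusted p = 0.00472), but did not pass on TPM as deposited (0.08) or with quantile normalization (0.24).

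**Figure D4:**
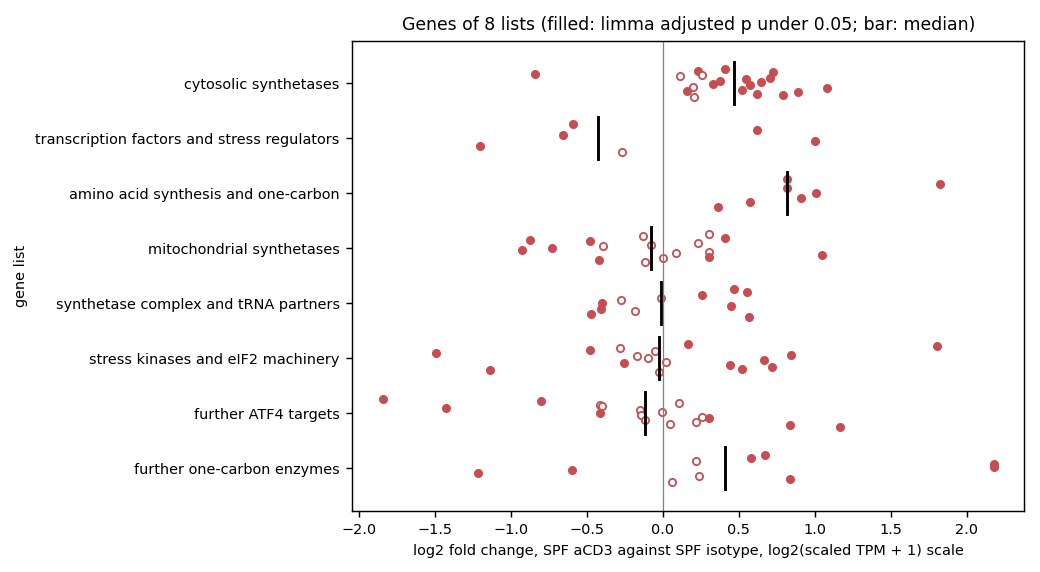
Log2 fold change of SPF aCD3 against SPF isotype (horizontal axis) for the genes of 8 lists (points, filled at a limma adjusted p under 0.05), with the median of each list as a bar. The medians of the cytosolic synthetases (0.47) and of the metabolic genes (0.82) are the furthest to the right, and that of the regulators (-0.43) the furthest to the left.

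Levels of cell cycle genes and of some markers of other cells moved with the treatment in SPF mice. The summed level of 8 of 8 cell cycle genes was between 341 and 512 scaled TPM in SPF isotype and between 1560 and 1895 in SPF aCD3. For 8 B and plasma cell markers the sum was between 113 and 264 in SPF isotype and between 4.18 and 14.1 in SPF aCD3, with Ms4a1 and Tnfrsf17 among those under 1 in every library of both groups. In SPF isotype most of that sum was Jchain, while in SPF aCD3 Jchain was between 0.157 and 2.04. The 7 others came to between 8.19 and 16.3 in SPF isotype and between 3.35 and 13.4 in SPF aCD3. The sum of 8 myeloid markers was between 3.62 and 14.2 in SPF isotype and between 75.2 and 149 in SPF aCD3. In SPF aCD3 nearly all of it was Cd68, which was between 71.0 and 149 there and between 0 and 11.5 in SPF isotype. The 7 other myeloid markers summed to between 1.05 and 3.62 in SPF isotype and between 0.197 and 4.27 in SPF aCD3. Csf1r, Adgre1 and C1qa were under 1 in both groups, and C1qa and C1qb were at 0 in SPF aCD3. For 6 stromal markers it was between 4.02 and 40.2 and between 0.656 and 2.86, with Col1a2 at 0 in SPF aCD3. The pair of CD8 genes summed to between 5.16 and 15.7 in SPF isotype and between 13.7 and 31.1 in SPF aCD3, nearly all Cd8a. Of 3 endothelial markers Cdh5 and Kdr were under 1 in both groups, and the sum, mostly Pecam1, was between 8.40 and 10.2 and between 3.55 and 4.99. The 5 erythroid markers summed to between 2.67 and 9.90 and between 0.979 and 1.67, with the 4 globin genes at 0 in SPF aCD3. The sums of 9 epithelial markers (7.09 to 21.3 and 6.44 to 15.4) and 11 pancreatic acinar markers (2.19 to 9.89 and 2.87 to 33.9) overlapped between the groups. The part of these markers and of the T cell markers in the changes above was not tested, and in sorted bulk cells a change in the makeup of the CD4+ T cells and a change of RNA per cell cannot be told apart.

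In GF mice the same comparison gave far fewer calls and depended on single libraries. Of the 33 genes, 3 rose, 0 fell and 30 did not pass, while 9.81% of all tested genes passed, 5.65% higher and 4.16% lower. The 3 were Psat1, Wars and Cars, and the median over the 33 genes was 0.21. At an unadjusted p under 0.05 there were 16 higher and 3 lower of 33, where all tested genes gave 17.5% higher and 15.7% lower. Psat1 alone rose on TPM as deposited (background 2.46% higher and 4.61% lower). No gene separated the 6 GF aCD3 from the 10 GF isotype libraries in full (background 0.0494% higher and 0.0906% lower).

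Psat1 was between 5.09 and 10.3 scaled TPM in GF isotype (median 8.99). In GF aCD3 it was 29.2 in M1, 32.2 in M2 and 28.1 in M5, but 7.67 in F1, 10.4 in M3 and 8.95 in M4. The former 3 libraries were as high as SPF aCD3, and the latter 3 lay within the range of GF isotype or just above it. The log2 fold change over all 6 was 0.85 (SE 0.24, limma adjusted p = 0.0409).

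Wars, between 7.57 and 8.94 in GF isotype (median 8.62), was 13.8, 14.8 and 12.1 scaled TPM in GF aCD3 M1, M2 and M5 and 8.71, 7.90 and 9.61 in F1, M3 and M4. Its log2 fold change was 0.31 (SE 0.09, limma adjusted p = 0.0416). Cars, the cysteine enzyme, was between 2.51 and 3.34 in GF isotype (median 2.87), 4.76, 4.66 and 5.31 in M1, M2 and M5, and 3.19, 3.15 and 3.15 in F1, M3 and M4. The log2 fold change of Cars was 0.33 (SE 0.09, limma adjusted p = 0.0398), and of the lower libraries only M4, for Wars, was above isotype.

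The same layout was seen in Qars, Ddit4, Eprs and Trib3, which did not pass in GF mice. Qars was between 28.1 and 39.4 scaled TPM in GF isotype, 66.9, 60.4 and 64.5 in GF aCD3 M1, M2 and M5, and 35.4, 31.2 and 26.9 in F1, M3 and M4. So F1, M3 and M4 were in or under the isotype range, and the log2 value over all 6 was 0.40 (limma adjusted p = 0.0768). Ddit4 was between 34.7 and 71.9 in GF isotype, 144, 153 and 149 in M1, M2 and M5, and 49.8, 48.9 and 43.2 in F1, M3 and M4. Eprs, which fell in SPF mice, was between 22.3 and 35.3 in GF isotype, 17.4, 18.7 and 17.5 in M1, M2 and M5, and 25.8, 38.2 and 27.3 in F1, M3 and M4. Trib3 was at 0 in M1 and M5 and 0.565 in M2, but 2.55, 1.51 and 1.98 in F1, M3 and M4, where GF isotype ran from 1.2 to 4.59. For both genes M1, M2 and M5 were below every isotype library, and M3 was above it for Eprs.

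Atf4, Ddit3 and Farsb did not follow that layout, and Asns did so in part. Atf4 was 360, 385, 434, 415, 378 and 311 scaled TPM in GF aCD3 F1, M1, M2, M3, M4 and M5, and between 344 and 542 in GF isotype (median 441). Only M5 lay below isotype, and the log2 value was -0.21 (limma adjusted p = 0.141). Ddit3 was 28.9, 42.7, 29.5, 35.5, 30.4 and 28.8 in the same order and between 31.6 and 50.6 in GF isotype, with M1 and M3 among the isotype values. Farsb, at 5.89, 5.99, 6.35, 5.00, 5.47 and 6.40 in that order, stayed within its range in GF isotype (4.58 to 6.48). Asns was 2.37, 2.67 and 2.55 scaled TPM in M1, M2 and M5 and 1.34, 2.10 and 2.07 in F1, M3 and M4, and between 0.929 and 2.40 in GF isotype. So its M1, M2 and M5 were the higher 3, with M2 and M5 above isotype, but none reached the levels above 4 of 5 SPF aCD3 libraries.

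Counted over genes, the libraries labelled M1, M2 and M5 had 20, 23 and 22 of the 24 genes that rose in SPF mice above every GF isotype library, and F1, M3 and M4 had 2, 2 and 3. For all genes that were higher in SPF mice the shares were 72.1%, 77.2% and 79.2%, and 6.89%, 9.40% and 6.73%. Of the 4 genes that fell in SPF mice, 2, 3 and 4 were below every GF isotype library in M1, M2 and M5, and 1, 0 and 1 in F1, M3 and M4. For all genes that were lower in SPF mice the shares were 68.5%, 73.6% and 74.9%, and 9.04%, 7.12% and 5.68%. The cell cycle sum was 1608, 1910 and 1741 scaled TPM in M1, M2 and M5, and 385, 531 and 413 in F1, M3 and M4. The sum of the B and plasma cell markers was 10.1, 11.3 and 10.1 in M1, M2 and M5, and 18.8, 82.6 and 28.96 in F1, M3 and M4. Cd68 was at 49.6, 52.5 and 70.2 in M1, M2 and M5, and at 11.5, 6.75 and 8.05 in F1, M3 and M4. Transcripts of pancreatic acinar cells (11 markers) did not follow that split and summed to 10.3, 54.9 and 3.29, and to 126, 654 and 33.2. Whether these values bear on the calls was not tested. The column names put M1, M2 and M3 in one number series and F1, M4 and M5 in another, so both kinds of library occur in each. All SPF columns are numbered 1 to 12 and all GF columns 25 to 33 or 48 to 54. Flora and column number therefore cannot be told apart in the comparisons of GF with SPF libraries below.

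The count of 3 genes rested on single libraries. It was 16 without GF aCD3 F1 or M4 and 18 without M3, where 28.5%, 26.6% and 27.5% of all tested genes passed, in place of 9.81%. It was 0 without GF aCD3 M1, M2 or M5, or without GF isotype F2, M1, M2, M3, M4 or M5, and in each of these fits 0 of all tested genes passed. It was 1 without SPF isotype M2, SPF aCD3 F2 or GF isotype F4 or F5, of which the SPF libraries enter only through the shared spread and sex term. In these last 4 fits 3.19%, 4.25%, 3.39% and 4.77% of all genes passed. Within either number series of the GF columns 0 of the 33 genes passed, and 1 of all 12140 (0.00824%).

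Without aCD3, no gene of the 33 passed between the floras, a share near that of all genes. Between GF isotype and SPF isotype 0 of 33 passed limma at an adjusted p under 0.05, against 1.63% of all tested genes (0.544% higher and 1.09% lower), and 3 had an unadjusted p under 0.05 (all genes 7.18% higher and 6.05% lower). These were Phgdh (0.38) and Rars (0.20), higher in GF, and Atf4 (-0.32), lower. The lowest limma adjusted p of the 33 was 0.104, for Atf4, which had a median of 441 scaled TPM in GF isotype and 537 in SPF isotype, with overlap. The 95% interval for Psat1 ran from -0.25 to 0.72 and that for Qars from -0.22 to 0.39, so differences of that size could not be told from 0. In no gene did all libraries of a group lie beyond those of the other (background 0.346% higher and 0.610% lower). On TPM as deposited, where the median gene moved by 0.15, Hars, Wars, Phgdh and Rars were higher in GF (background 6.42% higher and 0.755% lower), and on TPM without histone genes and Rn45s 9 genes were (background 18.0% higher and 0.992% lower).

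After aCD3, GF libraries were lower than SPF libraries in 14 of 33 genes and higher in 0 (background 17.0% lower and 15.8% higher). The 14 were 9 synthetases (Aars, Dars, Gars, Hars, Kars, Qars, Sars, Tars, Wars), Ddit4, and Asns, Psat1, Psph and Mthfd2. This comparison shares the SPF aCD3 libraries with the first and the GF aCD3 libraries with the second. Gars was the only gene without overlap (background 2.68% lower and 3.14% higher): it was 17.9, 17.3 and 17.8 scaled TPM in GF aCD3 M1, M2 and M5, 11.2, 12.1 and 12.8 in F1, M3 and M4, and at least 19.5 in SPF aCD3. Its log2 fold change was -0.52 with an SE of 0.09 (limma adjusted p = 0.000593). Asns was at most 2.67 in GF aCD3, where the SPF aCD3 median was 4.56. Its log2 fold change was -0.74 (SE 0.15, limma adjusted p = 0.00154), and the 1 SPF aCD3 library within the GF range was M2. On TPM as deposited only Asns was lower and 8 genes were higher (background 4.46% lower and 48.9% higher), and Hars, Wars, Sars, Aars and Mthfd2 had positive values. The count of lower genes ranged between 3 and 19 when a library was left out, and the count in either direction fell to 3 without GF aCD3 F1, 5 without M3, 6 without M4 and 9 without SPF aCD3 M1. Of all genes 13.7%, 21.5%, 20.5% and 29.3% passed there, in place of 32.8%.

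The difference between the aCD3 effects, GF minus SPF, was tested directly. It was below 0 in 7 genes (Gars, Wars, Rars, Hars, Tars, Asns, Qars) and above 0 in Ddit3, with 25 not passing (background 6.56% lower and 5.14% higher). For Gars the difference was -0.53 (SE 0.13, limma adjusted p = 0.0157), from an effect of 0.71 in SPF and 0.18 in GF mice. For Asns it was -0.61 (SE 0.20, limma adjusted p = 0.0487), from 0.82 and 0.21. For Ddit3 it was 0.47 (SE 0.15, limma adjusted p = 0.0422), from -0.66 in SPF and -0.19 in GF mice, where Ddit3 did not pass (limma adjusted p = 0.175). Psat1, the gene with the greatest rise, had a difference of -0.97 (95% interval -1.71 to -0.24) that did not pass (limma adjusted p = 0.0685).

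These differences depended on the libraries and on the scale. The count of 8 genes fell to 0 without GF aCD3 F1 and to 1 without M3 or M4, and was 11 without M1 or M5 and 12 without M2. All genes moved with it: 11.7% passed in all 28 libraries, between 2.12% and 4.30% without F1, M3 or M4, and between 20.4% and 24.8% without M1, M2 or M5. It was 2 without SPF aCD3 F3 or GF isotype M1. Without 1 of SPF isotype F1, M1 or M2 or SPF aCD3 F1, F2 or M1 it was 3. Without SPF isotype M3, SPF aCD3 M2 or M3, or GF isotype F1, F3 or M2 it was 4, and without SPF isotype F2 or GF isotype M3 it was 5. In the fits that gave 2 to 5 genes, between 6.54% and 9.10% of all genes passed. On TPM as deposited Ddit3 and Atf4 were above 0 and no gene was below it (background 2.44% and 1.04%). Ddit3 was the only one of the 8 that passed on each of the 4 scales.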

How the data were processed

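The authors deposited 1 table of TPM for 25124 genes. Per the file headers, TPM was computed with HOMER's analyzeRepeats.pl on RefSeq genes of mm10, with transcripts of a gene condensed. Aligner settings and use of strand were not given in the sources used here. In 99.4% of rows the length is the genomic span, introns included, so changes are compared within a gene. The marker sums, the filter and the words low and abundant go across genes and carry that limit. A further 26 columns that match no sample were not used. Labels name polyA RNA as the molecule and a total RNA kit, and which holds is not settled here.

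TPM was scaled by median of ratios over 12062 genes above 0 in every library. Genes with at least 1 scaled TPM in at least 6 libraries were tested (12140) with limma 3.58.1 in R 4.3.3, on log2(scaled TPM + 1), a scale that understates changes of low genes. The model fitted the 4 group means and sex over 28 libraries, with empirical Bayes moderation and a trend on mean expression. P-values were adjusted by Benjamini-Hochberg over all tested genes in each of 5 comparisons (threshold 0.05). Tables were prepared with Python 3.11.15, NumPy 2.4.6 and pandas 2.3.3. Reads per library were recovered from the steps of TPM times length (100% of low values whole within 0.05) and were used for depth only. PCR copies were not collapsed with molecular identifiers, so these reads are not counts of separate molecules. The labels do not say that each library is a separate animal, so p-values measure the spread between libraries.

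The genes and lists were chosen with earlier results of these data known. Values are given library by library, or as lowest, median and highest, for Atf4 and for the genes with the largest absolute change in SPF mice, 6 synthetases and 8 others. Up to 4 genes of each further list were named, with Ppp1r15a, Eif2ak4, Atf3 and Myc; a few genes of the lists are not reported here by name. Libraries that share a name, as F1, do not deviate together (r between -0.0317 and 0.101 in SPF and between -0.213 and 0.208 in GF), so no pairing was used. Alternatives concerned scaling, pseudocount, filter, covariates, weights, threshold and libraries, and within-series fits of the GF columns were added after seeing the data.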

Additional observations from a re-analysis of the deposited data

Results flagged for a closer look

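Of 132 sets of values, 1 per gene and group, 7 held a library far from the others by Dixon's test, where chance gives about 6.6. SPF isotype F2 was at 17.2 scaled TPM for Aars, below the 20.5 to 22.1 of the other 5, and at 8.36 for Iars, above their 6.54 to 7.09. SPF isotype F3 was at 7.59 for Psph, above the 3.74 to 4.58 of the others. GF isotype F3 was low for Iars (6.58, others 7.36 to 8.04) and GF isotype F4 for Wars (7.57, others 8.24 to 8.94). SPF aCD3 M2 was low for Asns (2.12, others 4.16 to 4.67) and for Aldh18a1 (11.1, others 12.9 to 13.9), both genes that rose after aCD3.

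Between libraries as labelled, the aCD3 effect differed between GF and SPF mice by the test of the difference itself in 8 genes. On the log2 scale, GF minus SPF, the difference was -0.53 for Gars, -0.48 for Wars, -0.43 for Rars, -0.44 for Hars, -0.62 for Tars, -0.61 for Asns, -0.68 for Qars and 0.47 for Ddit3, with limma adjusted p between 0.0157 and 0.0496. Without the library labelled GF aCD3 F1, M3 or M4, in turn, 0, 1 and 1 genes passed. Since those 3 libraries resemble isotype, whether they were treated as labelled is in doubt, and with it what these differences measure.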

How the results depend on the processing

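Counts of genes that passed are given in the order GF aCD3 against GF isotype (3), GF isotype against SPF isotype (0), GF aCD3 against SPF aCD3 (14) and difference of effects (8), each time with the shares of all tested genes in brackets (9.81%, 1.63%, 32.8% and 11.7% as reported). They were 1, 4, 9 and 2 on TPM as deposited (7.08%, 7.17%, 53.3% and 3.48%), 2, 9, 7 and 2 on TPM without Rn45s and histone genes (4.94%, 19.0%, 44.8% and 4.56%), and 4, 0, 10 and 5 with quantile normalization (9.83%, 1.44%, 28.02% and 6.94%). With no filter they were 0, 0, 9 and 3 (0.0483%, 1.61%, 17.5% and 4.19%), and with a filter at 5 they were 5, 0, 14 and 8 (15.2%, 1.64%, 37.1% and 14.0%). A pseudocount of 0.1 gave 3, 0, 14 and 7 (8.87%, 1.52%, 32.5% and 11.7%). A pseudocount of 5 gave 3, 0, 14 and 7 as well (10.3%, 1.63%, 32.5% and 10.9%). The model with no sex term gave 9, 0, 14 and 7 (17.5%, 1.63%, 34.3% and 12.2%), the GF column series as a covariate 10, 1, 15 and 10 (19.6%, 2.40%, 35.5% and 13.3%), and array weights 9, 1, 4 and 6 (15.5%, 4.87%, 15.1% and 7.94%). With only the groups compared, the first 3 were 0, 0 and 2 (0%, 2.92% and 7.05%). The replicate block, by sex letter and number, gave 0, 1, 6 and 3 (0%, 1.78%, 21.1% and 6.67%). The numbers do not pair the libraries: 1 of 6 SPF and 0 of 6 GF aCD3 libraries correlated best with the isotype library of their own name, and from the isotype side 3 of 6 and 1 of 6 with the aCD3 library of theirs. For SPF aCD3 against SPF isotype (28) the count was between 19 and 30 under these settings, 27 with the block, while between 38.5% and 65.9% of all genes passed. Requiring an absolute log2 fold change of at least 1 left 5 there (12.7% of all genes) and 0 in the other comparisons (0.379% to 4.59%). Within either GF column series 0 passed for GF aCD3 against GF isotype (0.00824%). Without single libraries the counts ranged from 26 to 29 for SPF, and from 0 to 18, 0 to 0, 3 to 20 and 0 to 12 for the others, while the shares of all genes ranged from 56.8% to 60.7%, 0% to 28.5%, 0.909% to 1.95%, 13.7% to 40.5% and 2.12% to 24.8%.

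Signs turned in 16 cases in which the gene passed before or after the change of setting, and beyond the scaling itself the cause was not tested. A further 132 values that passed in neither fit changed sign, 33 of them on TPM as deposited, 22 without Rn45s and histone genes and 52 when a library was left out. On TPM as deposited, SPF aCD3 against SPF isotype was -0.10 for Cars, -0.025 for Lars, -0.21 for Nars, -0.25 for Sars and -0.023 for Aldh18a1. There GF aCD3 against SPF aCD3 was 0.11 for Aars, 0.054 for Hars, 0.29 for Iars, 0.28 for Nars, 0.13 for Sars, 0.052 for Wars, 0.13 for Mthfd2 and 0.24 for Aldh18a1. On TPM without Rn45s and histone genes it was 0.0025 for Aars, 0.022 for Sars and 0.022 for Mthfd2. Depth limits Trib3, with at most 47 reads in a library, and Chac1, Pycr1, Cth and Slc7a11, for which no change could be seen.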
